A study of Rattus norvegicus with 12 samples.

Results

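The response of rat nucleus pulposus (NP) cells to tumour necrosis factor alpha (TNF-a) was measured while TonEBP was knocked down. It was read from 6 of the 12 RNA-seq libraries of the series, chosen by their labels: 3 libraries of shTon_TNF and 3 of shTon_CTR. All 6 came from Wistar rat NP tissue, which forms the gelatinous centre of each disc of the spine. The cells had grown out of explants in DMEM with 10% FBS and antibiotics and carried a lentiviral shRNA against TonEBP. The shTon_TNF cells received 50 ng/mL TNF-a during the 24 h before RNA collection, and the shTon_CTR cells were left untreated. The other 6 libraries came from cells with the control vector, again with the same TNF-a treatment (PLKO_TNF) or untreated (PLKO_CTR). Each group held 1 library of set 1, set 2 and set 3. What a set stands for (an animal, a preparation, a day) is not in the labels, and the p-values therefore speak only for these samples. In the main fits they weigh each change against the spread left after set differences are taken out. All knockdown libraries carry the same shRNA label, and the labels do not give the hairpin. Serum and the outgrowth step are shared by every group.

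TNF-a is an inflammatory cytokine present in degenerating discs. Its receptor activates the kinase that releases NF-kB dimers (Rel family transcription factors) from IkB proteins, and it also activates MAP kinases and AP-1 (Fos/Jun dimers). NF-kB in turn raises its own inhibitors, along with chemokines, cytokines and prostaglandin enzymes, and AP-1 sites are a classic feature of the promoters of several matrix metalloproteinases. TonEBP, encoded by Nfat5, has a Rel-like DNA-binding domain. It is best known for raising osmolyte transporters in hypertonic surroundings, the normal state of disc tissue, and it has also been tied to inflammatory genes in other cell types. The comparison asks which genes respond to TNF-a in cells that carry the TonEBP shRNA.

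Nfat5, the targeted gene (ENSRNOG00000011879), was read first as a check of the labels. It had 1695, 499.7 and 232 normalised reads in shTon_TNF and 458, 457 and 288 in shTon_CTR, always given here in the order set 1, set 2, set 3. In the control-vector cells it had 642, 1092 and 483 in PLKO_TNF and 685, 1363 and 1818 in PLKO_CTR. The library labelled shTon_TNF of set 1 was higher than the 3 PLKO_TNF libraries and goes against its label. In sets 2 and 3 the shTon_TNF library was below its PLKO_TNF partner. The change of Nfat5 with TNF-a in shTon cells did not pass the test (log2 fold change 0.57, SE 0.38, adjusted p = 0.469, and -0.09 without set 1), and the shTon groups overlapped. Nfat5 was close to its untreated partner in sets 2 and 3. Every direction below rests on the libraries as labelled, and log2 fold changes of single genes given with an adjusted p stand beside their value without set 1.

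Depth was 7160042 to 12511943 reads on genes in the tables for these libraries. In these 6 libraries the set was the largest source of variance, since principal component 1 (67.6%) ordered them by set and not by treatment. In normalised reads, skeletal muscle markers summed to 80143, 16265 and 254 in shTon_TNF and 96416, 29607 and 258 in shTon_CTR over 11 genes. The sums were lower with TNF-a in sets 1 and 2 and nearly equal in set 3. Sets 1 and 2 held far more muscle transcript than set 3 in both treatments. The 7 analysed markers of NP and notochord cells summed to 10995, 6307 and 4394 in shTon_TNF and 16772, 9989.7 and 6779 in shTon_CTR, lower with TNF-a in each set. Other defining NP and notochord genes, among them Acan, Col2a1, Sox9 and Krt19, were not analysed here. Of the macrophage markers 2 of 17 were analysed, Cd14 and Cd68, with sums of 299.8, 677 and 430.0 in shTon_TNF and 252, 524 and 471 in shTon_CTR, and of 14 markers of other leukocytes none was. In bulk RNA, fewer cells of a type and less RNA per cell cannot be told apart.

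TNF-a changed 405 of 12339 tested genes (3.28%) in shTon cells, at a Benjamini-Hochberg adjusted p under 0.05 in limma with the set as a block. Values are normalised reads, which are gene read counts scaled to a common depth over the 12 libraries, and a gene was tested where their mean over the 6 libraries was at least 10. Fold changes compare log2(normalised reads + 1) of shTon_TNF with shTon_CTR, a scale that understates the change of low genes. Of the 405 genes, 241 rose (1.95% of tested genes) and 164 fell (1.33%). Large changes were more often rises: 183 genes rose and 84 fell by more than 1 on the log2 scale, and 60 rose and 7 fell by more than 2. All 405 moved in 1 direction in the 3 sets, with median absolute log2 ratios of 1.14, 1.10 and 1.24. Over all tested genes those medians were 0.28, 0.21 and 0.34. The 405 were called from these same ratios, so their shared direction and larger medians follow in part from that choice. The 3 shTon_TNF libraries did not overlap the 3 shTon_CTR libraries for 233 of the 405, beside 1301 (10.5%) of all tested genes. The median log2 fold change of all genes was -0.01.

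Without set 1, 1105 of 12205 genes passed (9.05%), and 399 of the 405 were among them. Of these 529 rose and 576 fell, so that falls, not rises, were the larger number there. Without set 2 the count was 365 and without set 3 it was 317. With any set left out, equally few residual degrees of freedom remain per gene, and the p-values lean on the spread that limma shares across genes. The count rose only without set 1, and the cause of that rise was not tested. The limma adjusted p of Ccl20, for one, went from 0.000691 to 3.6e-16 without set 1, 4.9e-11 without set 2 and 0.0011 without set 3. Passing without set 1 is therefore a weak check of a call. The calls rest on the pairing by set: without the replicate block 6 genes passed. Of the 89 genes that passed and were picked by the rules for naming genes, 83 missed the threshold without the block and 40 without limma's mean-variance trend, and none missed it without set 1. Other settings that end the call of a named list member or of a named gene picked by those rules are given beside it. Among them is a fit of all 12 libraries, in which the 4 groups share 1 estimate of the spread. In it both cell lines also share 1 set effect, so set differences particular to a cell line add to that spread. Another is that fit with 11 libraries, without the shTon_TNF library of set 1, which was chosen after seeing the data. Members of gene lists were counted where they were tested (590 of 780 listed genes, with 612 analysed), and each list is set beside the 3.28% of all tested genes.

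**Figure D1:**
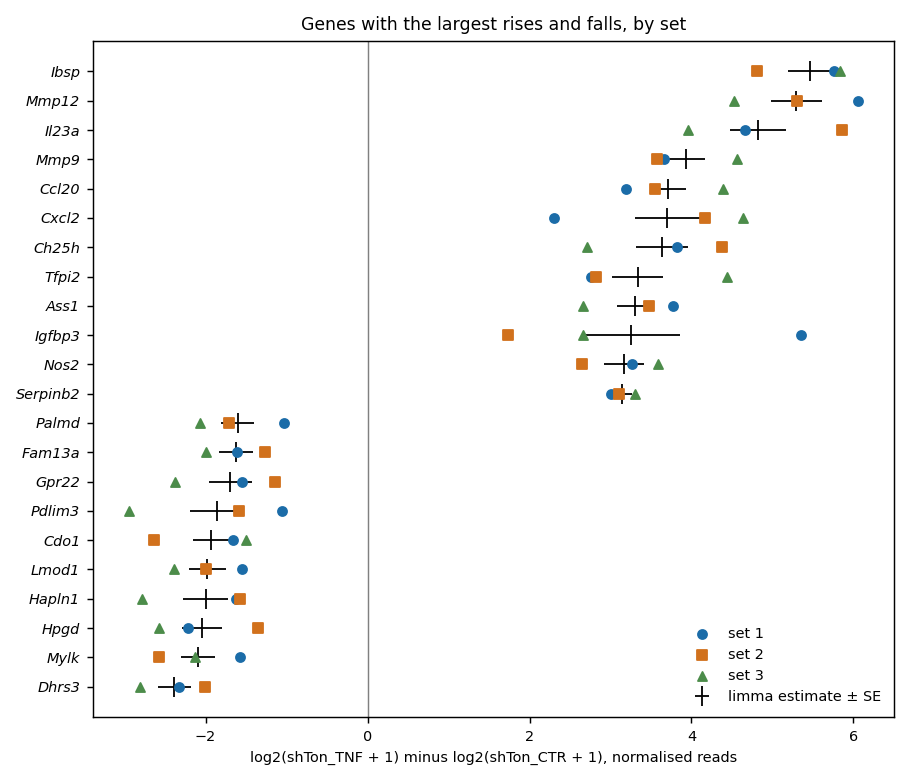
Log2 ratios of shTon_TNF over shTon_CTR (normalised reads + 1) by set for the 12 largest rises and 10 largest falls among genes past the threshold and averaging 100 or more normalised reads. Points are the 3 sets and vertical ticks the limma estimate with its SE. Each gene lies on 1 side of 0 in each set, as the choice of genes required, and estimates run from 5.47 for Ibsp to -2.38 for Dhrs3.

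The promoters of 5 genes that rose, among them those of NF-kB inhibitors, are shown for the NF-kB consensus, the motif that Rel family dimers are known to bind. They were picked because they hold a match: of the 12 largest rises 10 had a promoter in the table and 3 of these held one, and none was found for Tnfaip2, Traf1, Il23a, Il1b, Ptgs2, Ch25h, Ass1 or Ibsp. Each is the 120 bases before the annotated start, counted back from -1, 5′ to 3′ on the gene's strand, in RefSeq's GRCr8 assembly, and capitals mark matches to the NF-kB consensus on either strand. The windows are chr1:15543980-15544099 on the minus strand for Tnfaip3, chr6:78597073-78597192 (minus) for Nfkbia, chr9:91837039-91837158 (plus) for Ccl20, chr14:17467256-17467375 (minus) for Cxcl2 and chr4:5894576-5894695 (minus) for Il6.
Tnfaip3: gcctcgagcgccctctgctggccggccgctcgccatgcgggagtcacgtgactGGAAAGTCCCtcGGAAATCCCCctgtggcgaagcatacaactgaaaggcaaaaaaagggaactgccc
Nfkbia: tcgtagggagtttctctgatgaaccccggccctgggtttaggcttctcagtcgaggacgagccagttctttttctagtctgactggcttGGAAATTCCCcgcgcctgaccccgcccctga
Ccl20: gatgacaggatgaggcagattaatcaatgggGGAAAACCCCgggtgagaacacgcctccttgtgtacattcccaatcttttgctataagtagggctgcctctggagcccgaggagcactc
Cxcl2: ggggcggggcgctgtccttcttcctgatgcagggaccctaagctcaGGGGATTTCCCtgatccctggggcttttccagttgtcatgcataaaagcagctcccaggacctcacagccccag
Il6: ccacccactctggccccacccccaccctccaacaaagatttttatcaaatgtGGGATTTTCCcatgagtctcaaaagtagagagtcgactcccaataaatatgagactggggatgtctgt

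Tnfaip3 holds a pair of matches in this window, the nearer starting at -55, and a further one at -170. The match nearest the start in Nfkbia begins at -31, that of Ccl20 at -89 and that of Il6 at -68, and in Cxcl2 overlapping matches begin at -74 and -73. In Tnfaip3 and Nfkbia the match overlaps one to the TonE consensus, the site described for TonEBP, which begins at -68 in Tnfaip3 and at -32 in Nfkbia. Nfkbia holds a further TonE match at -181, and Cxcl2 holds one at -54, apart from its NF-kB matches. No TonE match was found for Ccl20 or Il6. Over all promoters, 62 of the 118 promoters with both motifs had them overlapping. Promoters spanned 250 bases before to 50 after the start, and symbols of 166 of the 241 genes that rose and 113 of the 164 that fell were matched. The NF-kB consensus stood in 28 of 166 (16.9%) promoters of genes that rose, 5 of 113 (4.42%) of genes that fell and 442 of 8832 (5.0%) of genes tested. For the genes that rose without set 1 it was 42 of 376 (11.2%), and among all listed promoters it was 1142 of 27457 (4.16%). The TonE consensus stood in 11 of 166 (6.63%) promoters of genes that rose, 2 of 113 (1.77%) of genes that fell and 303 of 8832 (3.43%) of genes tested. It stood in 1636 of 27457 (5.96%) of the table's promoters. These are matches of letters in a window and carry no measurement of binding.

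Genes of the NF-kB feedback loop rose with TNF-a in shTon cells. Of 23 tested members of the list of TNF/NF-kB subunits and feedback inhibitors 11 rose and 0 fell, with a median log2 fold change of 0.77, where 3.28% of all genes passed. Tnfaip3 encodes A20, the ubiquitin-editing enzyme that shuts NF-kB signalling off. It had 2132, 2543 and 2374 normalised reads in shTon_TNF and 366, 321 and 380.0 in shTon_CTR. The groups were far apart (log2 fold change 2.72, SE 0.14, adjusted p = 0.000437, and 2.81 without set 1). Nfkbia, which encodes IkB-alpha, the inhibitor that holds NF-kB in the cytoplasm, had 6726, 7136 and 13263 normalised reads in shTon_TNF and 2023, 2379.6 and 4271 in shTon_CTR. Each treated library was above each untreated one (log2 fold change 1.65, SE 0.12, adjusted p = 0.00138, and 1.61 without set 1). Tnfaip2, a TNF-inducible gene, had 15591, 16885 and 18715 normalised reads in shTon_TNF and 2252, 2676 and 3421 in shTon_CTR, again without overlap (log2 fold change 2.63, SE 0.14, adjusted p = 0.000437, and 2.55 without set 1). Traf1, an adaptor of TNF receptor family complexes, had 473, 466 and 639 normalised reads in shTon_TNF and 98.9, 127 and 139 in shTon_CTR. Its groups did not overlap (log2 fold change 2.10, SE 0.15, adjusted p = 0.00132, and 2.03 without set 1). The other 7 that rose, with log2 fold changes of 0.84 to 1.70, included the subunit genes Nfkb1, Nfkb2 and Relb and the inhibitor genes Nfkbib, Nfkbie and Tnip1. Without set 1, 2 or 3, 13, 10 and 9 members passed in turn. Nfkbib (adjusted p = 0.0714 without set 3) lost significance there.

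Chemokine genes were among the largest rises. In the list of CC and other chemokines 6 rose and 1 fell of 11 tested (13 of 22 listed were analysed; median log2 fold change 2.10). Ccl20, which draws CCR6-bearing lymphocytes and dendritic cells, had 7163, 7519 and 1279 normalised reads in shTon_TNF and 786, 643 and 59.9 in shTon_CTR. The groups did not overlap (log2 fold change 3.71, SE 0.22, adjusted p = 0.000691, and 3.97 without set 1). Ccl2, the monocyte attractant MCP-1, had 67091, 112536 and 107649 normalised reads in shTon_TNF and 16311, 39433 and 16148 in shTon_CTR (log2 fold change 2.10, SE 0.25, adjusted p = 0.00897, and 2.12 without set 1), with no overlap between the groups. Cxcl16, a transmembrane chemokine and scavenger receptor, had 1883, 4083 and 8115 normalised reads in shTon_TNF and 335, 728 and 1474 in shTon_CTR. Its groups were apart (log2 fold change 2.48, SE 0.11, adjusted p = 0.000437, and 2.47 without set 1). Cx3cl1, fractalkine, had 4451, 3198 and 1361 normalised reads in shTon_TNF and 1098, 835 and 424 in shTon_CTR, without overlap (log2 fold change 1.88, SE 0.13, adjusted p = 0.00110, and 1.81 without set 1). Among the neutrophil-attracting CXC chemokines 2 rose and 0 fell of 4 tested (4 of 7 listed were analysed; median 1.97). Cxcl2 had 2482, 7256 and 1584 normalised reads in shTon_TNF and 504, 402 and 62.5 in shTon_CTR. Every treated library exceeded every untreated one (log2 fold change 3.70, SE 0.40, adjusted p = 0.00641, and 4.41 without set 1). Cxcl3, its close relative, rose too (3.02, adjusted p = 0.0119, 3.64 without set 1). It is not known here how reads shared by near-identical relatives were counted, so Cxcl2, Cxcl3 and Ccl3 are uncertain as single genes. Cxcl12, the stromal chemokine that holds haematopoietic cells in place, was the member that fell (-0.91, adjusted p = 0.0185, -0.88 without set 1), and it is named because it was alone in that direction, after its value was seen. Over the sets left out in turn, 9, 7 and 7 members of the CC and other list and 4, 2 and 2 of the CXC list passed. Cxcl12 (adjusted p = 0.101 without set 2, 0.460 in a fit of all 12 libraries and 0.272 in the fit of 11 libraries) lost significance there.

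Cytokine genes rose as well: 10 rose and 0 fell of 19 tested (22 of 34 listed were analysed), with a median log2 fold change of 0.82. Il23a encodes the p19 subunit of interleukin 23, which sustains IL-17-producing T cells. It had 451, 1168 and 297 normalised reads in shTon_TNF and 17.0, 19.2 and 18.2 in shTon_CTR, and the groups did not overlap (log2 fold change 4.82, SE 0.34, adjusted p = 0.00132, and 4.90 without set 1). Lif, leukemia inhibitory factor of the IL-6 family, had 623, 1725 and 353 normalised reads in shTon_TNF and 108, 332 and 74.2 in shTon_CTR, and the groups did not overlap (log2 fold change 2.37, SE 0.14, adjusted p = 0.000691, and 2.30 without set 1). Il1a had 59.8, 203 and 109 normalised reads in shTon_TNF and 2.83, 19.2 and 7.81 in shTon_CTR (log2 fold change 3.66, SE 0.27, adjusted p = 0.00138, and 3.49 without set 1). For Il11, a gp130 cytokine, the values were 2299, 8713 and 241 normalised reads in shTon_TNF and 641, 1295 and 35.1 in shTon_CTR (log2 fold change 2.44, SE 0.20, adjusted p = 0.00202, and 2.75 without set 1). For Il1a the groups did not overlap and for Il11 the groups overlapped. Il6, the gp130 cytokine of the acute phase, had 400.1, 815 and 444 normalised reads in shTon_TNF and 190.3, 372 and 84.6 in shTon_CTR, and the groups did not overlap (log2 fold change 1.53, SE 0.26, adjusted p = 0.0306, and 1.75 without set 1). Il1b, whose product drives matrix breakdown in disc cells, had 68.3, 95.2 and 21.2 normalised reads in shTon_TNF and 0.942, 3.60 and 0 in shTon_CTR. It was near or at 0 without TNF-a, so its log2 fold change of 4.67 (adjusted p = 0.00224, 4.43 without set 1) depends on the pseudocount of 1 and was 6.15 with one of 0.1. The colony-stimulating factor genes Csf1, Csf2 and Csf3 and the gp130 cytokine gene Clcf1 were the others that rose (0.82 to 4.27). Passing members numbered 11, 9 and 10 without sets 1, 2 and 3 in turn. Il6 (adjusted p = 0.0678 in a fit of all 12 libraries and 0.0544 in the fit of 11 libraries), Csf2 (adjusted p = 0.0929 with a pseudocount of 0.1) and Clcf1 (adjusted p = 0.229 without set 2, 0.138 in a fit of all 12 libraries and 0.102 in the fit of 11 libraries) lost significance there.

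**Figure D2:**
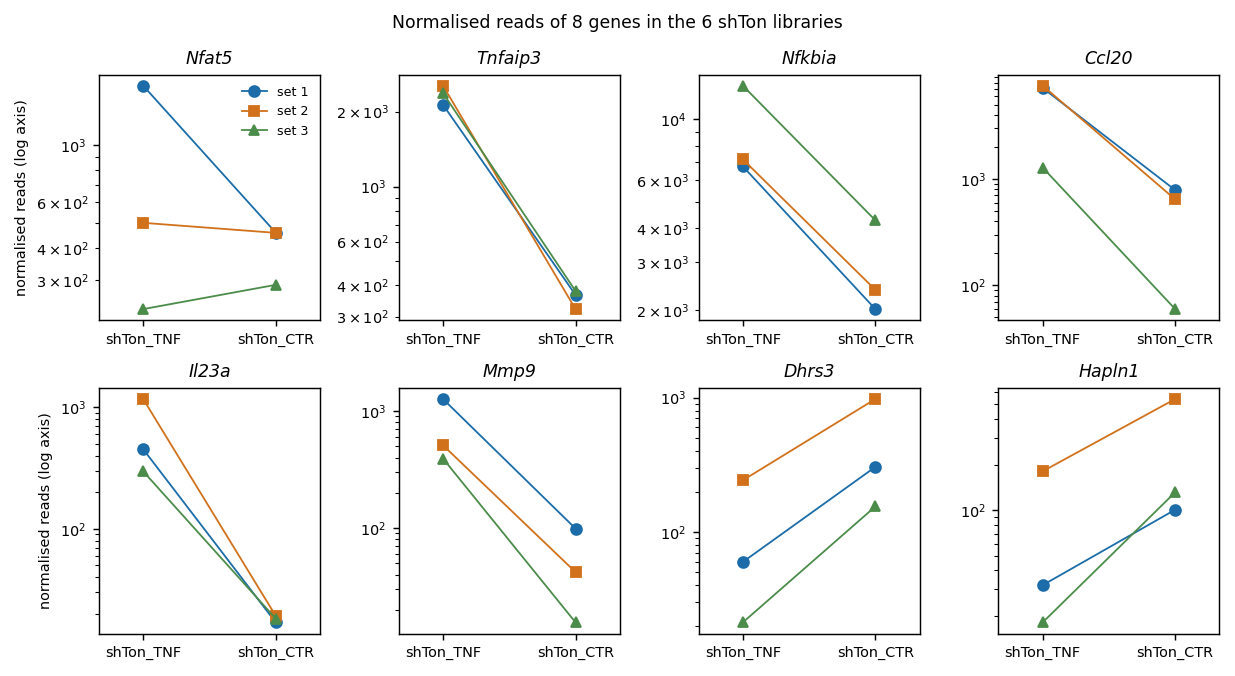
Normalised reads (log axis) of 8 genes in the 6 libraries, with shTon_TNF left of shTon_CTR and a line for each set. Tnfaip3, Nfkbia, Il23a and Mmp9 are higher and Dhrs3 and Hapln1 lower with TNF-a in each set, while Nfat5 is at 1695 in the treated library of set 1 against 458 in its untreated partner and is close to its partner in the other two sets.

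Some adhesion, survival and receptor genes rose. Of tested members 33.3%, 30% and 10.3% passed in turn, beside 3.28% of all genes. Of 9 tested adhesion molecules 3 rose and 0 fell (median 0.02). Icam1, the ligand of leukocyte integrins, had 9566, 9861 and 7837 normalised reads in shTon_TNF and 2864, 3728 and 2979 in shTon_CTR, and the groups did not overlap (log2 fold change 1.51, SE 0.14, adjusted p = 0.00285, and 1.40 without set 1). Cd44, the hyaluronan receptor, and Vcam1, the ligand of the integrin VLA-4, rose too (log2 fold changes 1.07, adjusted p = 0.0101, 1.06 without set 1 for Cd44 and 1.01, adjusted p = 0.00872, 0.98 without set 1 for Vcam1). Survival and apoptosis genes had 6 rises and 0 falls among 20 tested (median 0.35). Birc3, the ubiquitin ligase cIAP2 of the TNF receptor complex, had 1218, 1207 and 986 normalised reads in shTon_TNF and 291, 251 and 262 in shTon_CTR, and the groups did not overlap (log2 fold change 2.08, SE 0.13, adjusted p = 0.000967, and 2.09 without set 1). Bcl2a1, a BCL2 relative that protects from apoptosis, had 101, 172 and 362 normalised reads in shTon_TNF and 17.9, 26.4 and 33.8 in shTon_CTR (log2 fold change 2.83, SE 0.25, adjusted p = 0.00264, and 3.02 without set 1), and the groups did not overlap. Cflar, which encodes the caspase-8 regulator c-FLIP, rose too (1.0, adjusted p = 0.0113, 0.89 without set 1), as did the death receptor gene Fas (1.04, adjusted p = 0.00819, 1.02 without set 1). Among TNF, IL-1 and Toll-like receptors 3 rose and 0 fell of 29 tested (median 0.19). These were Tlr2, the receptor for bacterial lipopeptides (1.54, adjusted p = 0.00555, 1.61 without set 1), Il1rl1, the receptor of interleukin 33 (1.47, adjusted p = 0.00456, 1.63 without set 1), and Il1r1, the signalling receptor of interleukin 1 (0.86, adjusted p = 0.0304, 0.82 without set 1). Leaving out sets 1, 2 and 3 in turn left 3, 3 and 3 adhesion, 6, 6 and 6 survival and 8, 4 and 2 receptor genes past the threshold. Without set 1, 6 receptor genes rose and 2 fell. Vcam1 (adjusted p = 0.163 in a fit of all 12 libraries and 0.258 in the fit of 11 libraries), Il1rl1 (adjusted p = 0.205 in a fit of all 12 libraries and 0.103 in the fit of 11 libraries) and Il1r1 (adjusted p = 0.0622 without set 3) lost significance there.

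Enzymes that make and break down prostaglandin E2 and handle arginine for nitric oxide changed with TNF-a. The list of mediator enzymes held 6 rises and 1 fall among 17 tested, with a median log2 fold change of 0.53. Ptgs2 encodes COX-2, the inducible prostaglandin synthase. It had 12023, 25859 and 13089 normalised reads in shTon_TNF and 3981, 6383 and 3231 in shTon_CTR, and the groups did not overlap (log2 fold change 1.88, SE 0.15, adjusted p = 0.00185, and 2.02 without set 1). Ptges, which makes prostaglandin E2 from the COX product, had 3737, 8836 and 3529 normalised reads in shTon_TNF and 739, 1974 and 278 in shTon_CTR (log2 fold change 2.72, SE 0.28, adjusted p = 0.00494, and 2.91 without set 1), and the groups did not overlap. Hpgd, the dehydrogenase that inactivates prostaglandin E2 and no member of the list, fell: it had 109.9, 123 and 48.5 normalised reads in shTon_TNF and 515, 314 and 294 in shTon_CTR, and the groups did not overlap (log2 fold change -2.05, SE 0.25, adjusted p = 0.00884, and -1.96 without set 1). Nos2, inducible nitric oxide synthase (ENSRNOG00000049980), had 235, 178 and 198 normalised reads in shTon_TNF and 23.6, 27.6 and 15.6 in shTon_CTR, and the groups did not overlap (log2 fold change 3.16, SE 0.24, adjusted p = 0.00173, and 3.11 without set 1). A second row, NOS2 (ENSRNOG00000048887), rose as well (2.36, adjusted p = 0.00676, 2.49 without set 1), and how reads were shared between them is not known here. Ass1, which rebuilds the arginine that Nos2 consumes, had 787, 249 and 3812 normalised reads in shTon_TNF and 56.5, 21.6 and 604 in shTon_CTR. There the groups overlapped (log2 fold change 3.30, SE 0.22, adjusted p = 0.00110, and 3.06 without set 1). Arg2, mitochondrial arginase, was the member that fell (-1.79, adjusted p = 0.0494, -1.64 without set 1) and is named after its value was seen. Gch1, which makes the cofactor of nitric oxide synthases, and the phospholipase gene Pla2g4a completed the rises. Ch25h, which makes 25-hydroxycholesterol, had 212, 541 and 201 normalised reads in shTon_TNF and 14.1, 25.2 and 29.9 in shTon_CTR (log2 fold change 3.63, SE 0.32, adjusted p = 0.00267, and 3.54 without set 1), and the groups did not overlap. Passing members were 10, 7 and 5 without sets 1, 2 and 3 in turn, with 2 falls without set 1. Arg2 (adjusted p = 0.167 without set 3, 0.185 in a fit of all 12 libraries, 0.0671 with a pseudocount of 0.1 and 0.203 in the fit of 11 libraries) and Pla2g4a (adjusted p = 0.251 without set 2, 0.0888 without set 3, 0.128 in a fit of all 12 libraries, 0.0596 with a pseudocount of 0.1, 0.0764 in the fit of 11 libraries and 0.0522 with a minimum mean of 50) lost significance there.

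Mmp3, Mmp10, Mmp12 and Mmp13 rose and lie together on chromosome 8 in GRCr8, and their promoters are shown for the AP-1 motif TGANTCA (either strand; none of the 4 promoters holds the NF-kB consensus), whose matches are in capitals. The 120-base windows, on the plus strand, are chr8:12925161-12925280 for Mmp3, chr8:12974587-12974706 for Mmp10, chr8:12866532-12866651 for Mmp12 and chr8:12782709-12782828 for Mmp13.
Mmp3: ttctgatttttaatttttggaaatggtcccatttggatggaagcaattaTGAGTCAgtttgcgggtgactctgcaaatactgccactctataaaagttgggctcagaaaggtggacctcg
Mmp10: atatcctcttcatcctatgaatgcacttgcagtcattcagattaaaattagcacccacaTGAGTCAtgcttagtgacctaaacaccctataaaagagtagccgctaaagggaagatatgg
Mmp12: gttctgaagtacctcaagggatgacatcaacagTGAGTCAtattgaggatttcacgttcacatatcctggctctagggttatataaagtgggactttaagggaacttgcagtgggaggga
Mmp13: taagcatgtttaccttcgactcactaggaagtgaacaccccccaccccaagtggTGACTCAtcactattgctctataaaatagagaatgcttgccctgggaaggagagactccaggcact

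The match begins at -71 in Mmp3, -61 in Mmp10, -87 in Mmp12 and -66 in Mmp13. None was found for Timp1, which rose, and Mylk, which fell, holds one at -68. Mmp1 and Mmp7 on the same chromosome, not among the genes that rose, hold one at -84 and at -80. Of the 12 largest rises 10 had a promoter in the table and 3 of these held the motif. The motif stood in 25 of 166 (15.1%) promoters of genes that rose, 9 of 113 (7.96%) of genes that fell and 433 of 8832 (4.90%) of genes tested, and in 2012 of 27457 (7.33%) of all promoters. For the genes that rose without set 1 the share was 38 of 376 (10.1%).

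The metalloproteinase genes Mmp3, Mmp9, Mmp10, Mmp12 and Mmp13 rose with TNF-a, as did the inhibitor gene Timp1. Of 17 tested members 6 rose and 0 fell (median log2 fold change 0.01). Mmp12, macrophage elastase, had 379, 276 and 351 normalised reads in shTon_TNF and 4.71, 6.0 and 14.3 in shTon_CTR, and the groups did not overlap (log2 fold change 5.30, SE 0.32, adjusted p = 0.000691, and 4.92 without set 1). Mmp9, gelatinase B, had 1265, 509.6 and 392 normalised reads in shTon_TNF and 98.9, 42.0 and 15.6 in shTon_CTR, and the groups did not overlap (log2 fold change 3.93, SE 0.23, adjusted p = 0.000691, and 4.07 without set 1). Mmp3, stromelysin 1, cleaves aggrecan and activates other metalloproteinases. It had 74354, 123378 and 26781 normalised reads in shTon_TNF and 14153, 15332 and 4956 in shTon_CTR (log2 fold change 2.61, SE 0.19, adjusted p = 0.00132, and 2.72 without set 1), and the groups did not overlap. Mmp10, stromelysin 2, had 14708, 24094 and 4194 normalised reads in shTon_TNF and 2240.1, 2833 and 807 in shTon_CTR (log2 fold change 2.73, SE 0.16, adjusted p = 0.000691, and 2.73 without set 1), and the groups did not overlap. Mmp13, the collagenase that cuts type II collagen, had 11380.5, 42741 and 1823 normalised reads in shTon_TNF and 2085, 5420.0 and 394 in shTon_CTR, and the groups overlapped (log2 fold change 2.54, SE 0.17, adjusted p = 0.00110, and 2.59 without set 1). Timp1, an inhibitor of these proteases, had the smallest rise of the 6 (0.98, adjusted p = 0.0168, 0.86 without set 1). Mmp2, gelatinase A (-0.22, adjusted p = 0.395, -0.27 without set 1), and Mmp14, its membrane-bound activator (-0.24, adjusted p = 0.461, -0.40 without set 1), missed the threshold and are named, like Timp1, after their values were seen. Mmp9 also stands in the list of osteoclast markers, of which 1 of 3 tested rose, and Mmp12 is a macrophage product. Cd14, a macrophage marker, had 232, 658 and 419 normalised reads in shTon_TNF and 186, 517 and 450.3 in shTon_CTR (0.19, adjusted p = 0.552, 0.12 without set 1), which did not pass, and the part of other cells in these rises was not tested. In turn 7, 6 and 7 members passed without sets 1, 2 and 3, with 1 fall without set 1.

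The plasminogen system, which activates pro-metalloproteinases at the cell surface, rose on both the protease and the inhibitor side: 6 rose and 0 fell of 7 tested (median 1.27). Plau, urokinase, had 5332, 6772 and 5093 normalised reads in shTon_TNF and 866, 859 and 907 in shTon_CTR, and the groups did not overlap (log2 fold change 2.70, SE 0.14, adjusted p = 0.000437, and 2.73 without set 1). Serpinb2, plasminogen activator inhibitor 2, had 2595, 2850.2 and 842 normalised reads in shTon_TNF and 323, 329.8 and 84.6 in shTon_CTR (log2 fold change 3.14, SE 0.13, adjusted p = 0.000437, and 3.20 without set 1), and the groups did not overlap. Plaur, the urokinase receptor (1.23, adjusted p = 0.00682, 1.32 without set 1), and Serpine2, protease nexin 1 (0.91, adjusted p = 0.0140, 0.93 without set 1), also rose. Plat, tissue plasminogen activator, rose as well (1.27, adjusted p = 0.0359, 1.37 without set 1) and is named after its value was seen. Tfpi2, a Kunitz inhibitor of plasmin and other serine proteases, is in no list and had 2674, 3974 and 583 normalised reads in shTon_TNF and 395, 560.1 and 26.0 in shTon_CTR (log2 fold change 3.34, SE 0.32, adjusted p = 0.00367, and 3.63 without set 1), and the groups did not overlap. Among the ADAMTS proteases 1 rose and 0 fell of 13 tested (median -0.01). It was Adamts8, with 1598, 1733 and 2005 normalised reads in shTon_TNF and 439, 372 and 596 in shTon_CTR (log2 fold change 1.94, SE 0.14, adjusted p = 0.00132, and 1.98 without set 1). Without sets 1, 2 and 3 in turn 6, 4 and 5 plasminogen genes and 2, 1 and 1 ADAMTS genes passed, with 1 fall among the ADAMTS genes without set 1. Plat (adjusted p = 0.0540 without set 2 and 0.0715 in the fit of 11 libraries), Plaur (adjusted p = 0.125 in a fit of all 12 libraries and 0.0770 in the fit of 11 libraries) and Serpine2 (adjusted p = 0.0577 without set 2, 0.123 in a fit of all 12 libraries and 0.203 in the fit of 11 libraries) lost significance there.

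**Figure D3:**
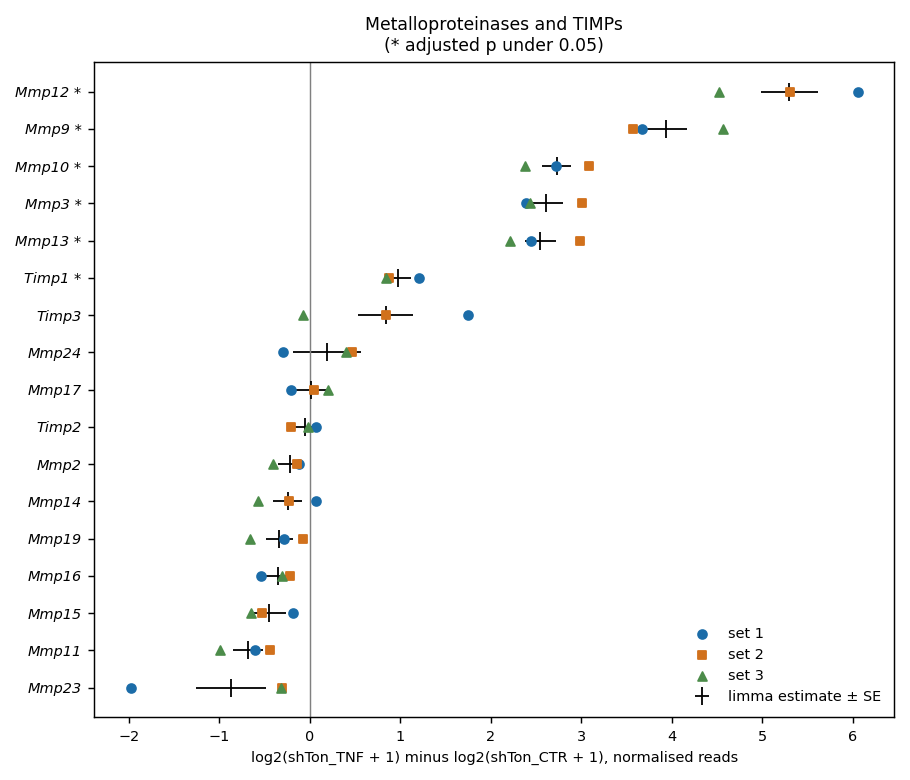
Log2 ratios of shTon_TNF over shTon_CTR (normalised reads + 1) by set for the 17 tested metalloproteinase and TIMP genes, with the limma estimate and its SE; an asterisk marks an adjusted p under 0.05. The 6 genes past the threshold rose in each set, from 0.98 for Timp1 to 5.30 for Mmp12, and the other 11 lie between -0.87 for Mmp23 and 0.84 for Timp3.

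Among genes of the matrix itself no collagen passed, while 22.7% of tested proteoglycan and hyaluronan genes did, beside 3.28% of all genes. Link protein was among those that passed. Among proteoglycan and hyaluronan genes 4 rose and 1 fell of 22 tested (24 of 33 listed were analysed; median 0.17). Hapln1, the link protein that fixes aggrecan to hyaluronan, was the one that fell. It had 32.0, 181 and 18.2 normalised reads in shTon_TNF and 101, 542 and 131 in shTon_CTR, and the groups overlapped (log2 fold change -2.0, SE 0.27, adjusted p = 0.0142, and -2.18 without set 1). Has2, the main hyaluronan synthase of chondrocyte-like cells, had 3404, 3466 and 11133 normalised reads in shTon_TNF and 1989, 981 and 2806 in shTon_CTR, and the groups did not overlap (log2 fold change 1.53, SE 0.23, adjusted p = 0.0201, and 1.90 without set 1). Chsy1, a chondroitin sulphate synthase (0.83, adjusted p = 0.0168, 0.83 without set 1), and Sdc4, a membrane heparan sulphate proteoglycan (1.0, adjusted p = 0.0173, 1.03 without set 1), rose. Sdc1, another syndecan, was the other that rose. Of 22 tested collagen genes none passed (median -0.14), whereas 6 fell without set 1. By value 15 of the 22 were lower and 7 higher, beside 6289 lower and 6050 higher of all 12339 tested genes. Col3a1, the fibrillar collagen with the smallest p, had 22014, 25612 and 929.6 normalised reads in shTon_TNF and 36073, 38530.3 and 2924 in shTon_CTR (log2 fold change -0.98, SE 0.22, adjusted p = 0.0671, and -1.12 without set 1), and the groups overlapped. Col3a1 passed in DESeq2 (adjusted p = 0.000387) but not in edgeR (0.0675). No chondrogenic transcription factor of 7 tested passed (median -0.48; 2 fell without set 1). Pax1, which marks the embryonic sclerotome, had the smallest p (-0.87, adjusted p = 0.144, -1.09 without set 1). Counts without sets 1, 2 and 3 in turn were 8, 4 and 4 proteoglycan genes, 6, 3 and 2 collagens and 2, 0 and 0 of these factors. Without set 1, 5 proteoglycan and hyaluronan genes rose and 3 fell. Has2 (adjusted p = 0.0566 without set 3, 0.168 in a fit of all 12 libraries and 0.0568 in the fit of 11 libraries), Chsy1 (adjusted p = 0.0638 without set 2) and Sdc4 (adjusted p = 0.0583 in the fit of 11 libraries) lost significance there. Sdc1 (adjusted p = 0.106 without set 2 and 0.0817 in the fit of 11 libraries) lost significance there.

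A few markers of NP cells and of contractile cells fell with TNF-a. Of 7 tested NP and notochord markers 0 rose and 2 fell, with the most negative median of the lists with 4 or more tested members (-0.76). By value 5 of the 7 were lower and 2 higher. Of all 12339 tested genes 6289 were lower and 6050 higher, which also stands beside the muscle counts below. Krt8, an intermediate filament of notochord-derived cells, had 93.9, 110.0 and 1364 normalised reads in shTon_TNF and 194, 192 and 2163 in shTon_CTR (log2 fold change -0.83, SE 0.15, adjusted p = 0.0316, and -0.73 without set 1), and the groups overlapped. Lgals3, galectin 3, had 1444, 2495 and 2824 normalised reads in shTon_TNF and 2763, 4143 and 4361 in shTon_CTR (log2 fold change -0.76, SE 0.13, adjusted p = 0.0252, and -0.68 without set 1), and the groups overlapped. Among smooth muscle and myofibroblast markers 0 rose and 2 fell of 6 tested (median -0.57), and all 6 had lower values. Lmod1, an actin nucleator of smooth muscle, had 106, 34.4 and 13.6 normalised reads in shTon_TNF and 312, 140.3 and 75.5 in shTon_CTR, and the groups overlapped (log2 fold change -1.98, SE 0.23, adjusted p = 0.00819, and -2.19 without set 1). Cnn1, calponin, fell (-1.13, adjusted p = 0.0381, -1.31 without set 1). The summed level of that list was 27651, 9029 and 3107 in shTon_TNF and 34677, 16310.4 and 3216 in shTon_CTR, highest in set 1 in both treatments. Of 11 tested skeletal muscle markers 9 had lower and 2 higher values (median -0.51). Myod1, the master factor of skeletal muscle, was the one that passed. It had 657, 63.8 and 4.54 normalised reads in shTon_TNF and 1221, 211 and 10.4 in shTon_CTR (log2 fold change -1.21, SE 0.22, adjusted p = 0.0370, and -1.38 without set 1), and the groups overlapped. Of the annulus fibrosus and tendon markers none of 6 tested passed (-0.25; Scx, the tendon factor scleraxis, -0.50, adjusted p = 0.130, -0.65 without set 1), and of the 3 endothelial ones none did (Tek, the angiopoietin receptor, -0.39, adjusted p = 0.625, -0.06 without set 1). How far the muscle and NP content of the cultures moved with these genes was not tested. Without sets 1, 2 and 3 in turn 4, 1 and 1 NP markers and 3, 1 and 1 smooth muscle markers passed, and without set 1 3 skeletal muscle and 2 annulus and tendon markers fell. Krt8 (adjusted p = 0.0932 without set 2, 0.0693 without set 3, 0.0738 in a fit of all 12 libraries and 0.129 in the fit of 11 libraries), Lgals3 (adjusted p = 0.131 without set 2 and 0.0801 in the fit of 11 libraries) and Lmod1 (adjusted p = 0.103 in a fit of all 12 libraries) lost significance there. Cnn1 (adjusted p = 0.185 without set 2, 0.0588 without set 3, 0.273 in a fit of all 12 libraries and 0.0963 in the fit of 11 libraries) and Myod1 (adjusted p = 0.152 without set 2 and 0.0544 in the fit of 11 libraries) lost significance there.

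The remaining large falls were of genes with diverse roles. Dhrs3, a reductase that turns retinal back to retinol, fell most among the named genes. It had 59.8, 243 and 21.2 normalised reads in shTon_TNF and 305, 977 and 155 in shTon_CTR, and the groups overlapped (log2 fold change -2.38, SE 0.20, adjusted p = 0.00221, and -2.41 without set 1). Mylk, the kinase that switches on smooth muscle myosin, had 515, 124 and 19.7 normalised reads in shTon_TNF and 1533, 739 and 89.8 in shTon_CTR (log2 fold change -2.09, SE 0.21, adjusted p = 0.00472, and -2.35 without set 1), and the groups overlapped. Cdo1, cysteine dioxygenase, the first step from cysteine to the osmolyte taurine, had 177, 227 and 339 normalised reads in shTon_TNF and 564, 1418 and 958 in shTon_CTR. Here the groups did not overlap (log2 fold change -1.93, SE 0.23, adjusted p = 0.00863, and -2.07 without set 1). Pdlim3, a Z-disc protein of muscle, had 499, 219 and 3.03 normalised reads in shTon_TNF and 1038, 658 and 29.9 in shTon_CTR, and the groups overlapped (log2 fold change -1.86, SE 0.34, adjusted p = 0.0363, and -2.26 without set 1). Palmd, palmdelphin (-1.60, adjusted p = 0.00997, -1.89 without set 1), Fam13a, a gene with a GTPase-activating domain (-1.62, adjusted p = 0.0103, -1.63 without set 1), and the orphan receptor gene Gpr22 (-1.69, adjusted p = 0.0228, -1.76 without set 1) were lower in each set too. Mylk, Pdlim3, Lmod1 and Cnn1 fell in libraries whose muscle marker sums differ widely between sets, and the part of muscle content in these falls was not tested. Cdo1 (adjusted p = 0.0613 in the fit of 11 libraries) and Pdlim3 (adjusted p = 0.0608 with a pseudocount of 0.1) lost significance there.

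Some signalling ligand and early response genes passed. In the growth factor list 16.7% of tested members passed, and in the TGF-beta and BMP list 12.9%. The share was 7.14% for Wnt, Notch and Hedgehog genes and 23.8% for AP-1 and early response genes, beside 3.28% of all genes. Of 30 tested growth factor genes 4 rose and 1 fell (median 0.23). The EGF receptor ligand genes Ereg, epiregulin (1.20, adjusted p = 0.0104, 1.05 without set 1), and Hbegf (0.75, adjusted p = 0.0327, 0.81 without set 1) rose, and Stc1, stanniocalcin 1, fell (-1.06, adjusted p = 0.0304, -1.22 without set 1). Igfbp3, which binds insulin-like growth factors, had 541, 503 and 104 normalised reads in shTon_TNF and 12.2, 149.9 and 15.6 in shTon_CTR (log2 fold change 3.25, SE 0.60, adjusted p = 0.0378, and 2.20 without set 1), and the groups overlapped. Of TGF-beta and BMP genes 4 rose and 0 fell of 31 tested (median -0.07), among them Inhba, the activin A subunit (2.46, adjusted p = 0.00185, 2.73 without set 1), Bmp2, an osteogenic morphogen (1.51, adjusted p = 0.00719, 1.44 without set 1), and Tgfb1 (1.18, adjusted p = 0.0208, 0.97 without set 1). Of Wnt, Notch and Hedgehog genes 1 rose and 1 fell of 28 tested (median 0.01): Sfrp2, a secreted Wnt modulator, rose (1.04, adjusted p = 0.0388, 1.0 without set 1), and Wisp2, a matricellular CCN protein, fell (-1.17, adjusted p = 0.00819, -1.15 without set 1). AP-1 and early response genes had 5 rises among 21 tested (median 0.44), among them Fosl1, the AP-1 subunit FRA1 (1.19, adjusted p = 0.00815, 1.30 without set 1), Myc (1.13, adjusted p = 0.00978, 1.19 without set 1), the MAP kinase phosphatase gene Dusp5 (1.50, adjusted p = 0.0101, 1.51 without set 1) and the small Maf gene Maff (1.17, adjusted p = 0.0110, 1.30 without set 1). Ereg (adjusted p = 0.0795 in the fit of 11 libraries), Hbegf (adjusted p = 0.267 without set 2, 0.241 in a fit of all 12 libraries and 0.170 in the fit of 11 libraries) and Stc1 (adjusted p = 0.197 without set 2, 0.0502 without set 3, 0.0829 in a fit of all 12 libraries and 0.0585 in the fit of 11 libraries) lost significance there. Igfbp3 (adjusted p = 0.0766 without set 3, 0.0537 with a pseudocount of 0.1 and 0.0996 in the fit of 11 libraries), Bmp2 (adjusted p = 0.0592 in the fit of 11 libraries) and Tgfb1 (adjusted p = 0.0546 without set 3, 0.0591 in a fit of all 12 libraries and 0.109 in the fit of 11 libraries) lost significance there. Sfrp2 (adjusted p = 0.0733 without set 3, 0.417 in a fit of all 12 libraries, 0.0520 with a pseudocount of 0.1 and 0.568 in the fit of 11 libraries) and Fosl1 (adjusted p = 0.0533 in a fit of all 12 libraries) lost significance there. In turn 10, 5 and 3 growth factor, 14, 8 and 4 TGF-beta, 6, 2 and 3 Wnt and 9, 5 and 5 AP-1 list members passed without sets 1, 2 and 3. Without set 1, 7 TGF-beta and BMP genes rose and 7 fell, 7 growth factor genes rose and 3 fell, 2 Wnt, Notch and Hedgehog genes rose and 4 fell and 8 AP-1 genes rose and 1 fell.

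A few interferon-type genes passed (20% of those tested, beside 3.28% of all genes). Of 25 tested 4 rose and 1 fell (median 0.22). The guanylate-binding GTPase genes Gbp2 (1.55, adjusted p = 0.00221, 1.53 without set 1) and Gbp5 (1.98, adjusted p = 0.00676, 1.97 without set 1) and the transcription factor gene Irf1 (1.10, adjusted p = 0.0192, 0.92 without set 1) rose, and so did Oasl2, an oligoadenylate synthetase-like gene. Of 19 antigen presentation genes 2 rose and 0 fell (median 0.25), Tapbp, tapasin (1.10, adjusted p = 0.00897, 0.98 without set 1), and Psmb10, an immunoproteasome subunit (1.35, adjusted p = 0.0101, 1.44 without set 1). Of 12 complement genes 11 had lower values, beside 6289 of all 12339 tested genes (list median -0.38). C1qtnf1, a C1q/TNF-related protein, was the member that passed (-0.68, adjusted p = 0.0364, -0.66 without set 1). Ibsp, bone sialoprotein, was the osteoblast marker that rose among 4 tested: it had 664, 1034 and 56.0 normalised reads in shTon_TNF and 11.3, 36.0 and 0 in shTon_CTR (log2 fold change 5.47, SE 0.28, adjusted p = 0.000437, and 5.32 without set 1). With an untreated library at 0, its log2 fold change depends on the pseudocount and was 6.61 with one of 0.1, and the groups did not overlap. Without sets 1, 2 and 3 in turn 9, 4 and 4 interferon genes, 4, 2 and 2 antigen presentation genes and 2, 0 and 0 complement genes passed. Without set 1, 6 interferon genes rose and 3 fell. Oasl2 (adjusted p = 0.173 without set 2, 0.0714 without set 3, 0.171 in a fit of all 12 libraries, 0.0504 with a pseudocount of 0.1 and 0.109 in the fit of 11 libraries) and C1qtnf1 (adjusted p = 0.251 without set 2, 0.0602 without set 3, 0.0528 in a fit of all 12 libraries and 0.0963 in the fit of 11 libraries) lost significance there.

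In each of the other lists 3 genes or fewer passed, beside 3.28% of all genes. Of the osmoprotective TonEBP targets none of 11 tested passed (median 0.12; 12 of 21 listed were analysed, and Slc5a3, the inositol transporter, was not). Slc2a6, a hexose transporter placed in that list, had the smallest p (0.81, adjusted p = 0.0931, 0.96 without set 1). None passed among 19 unfolded protein response genes (median 0.15; smallest p Creld2, 0.55, adjusted p = 0.0601, 0.51 without set 1), 26 glycolysis and hypoxia genes (median -0.0035; P4ha1, a collagen prolyl hydroxylase, -0.52, adjusted p = 0.0769, -0.48 without set 1) or 5 metallothionein and zinc transporter genes (median -0.25; 1 of the rows named Mt1, -0.75, adjusted p = 0.102, -0.68 without set 1). Mitochondrially encoded transcripts had a median of 0.56 over 11 genes with none past the threshold, and set medians of 1.26, 0.26 and 0.10, highest in set 1. Mt-nd2, a subunit of complex I, had the smallest p (0.95, adjusted p = 0.0667, 0.65 without set 1). In DESeq2 Mt-nd2 (adjusted p = 0.00688), Creld2 (0.0455) and P4ha1 (0.0407) passed, and in edgeR none of these did (0.0570, 0.0554 and 0.0811). Of 36 cell cycle genes 1 rose and 2 fell (8.33% of the list; median -0.09): Ccnd1, cyclin D1, rose (0.84, adjusted p = 0.0385, 0.98 without set 1), and the mitotic genes Cenpf (-0.93, adjusted p = 0.0424, -1.13 without set 1) and Kif11 (-0.90, adjusted p = 0.0465, -1.03 without set 1) fell. Among 26 sterol and fatty acid genes 1 rose and 0 fell (median 0.10). Without sets 1, 2 and 3 in turn 7, 0 and 0 cell cycle, 4, 0 and 0 sterol, 1, 0 and 0 osmoprotective, 2, 0 and 0 glycolysis and 1, 2 and 0 mitochondrially encoded genes passed. Without set 1, 1 of the cell cycle genes rose and 6 fell, and 1 of the metallothionein and zinc transporter genes fell. Ccnd1 (adjusted p = 0.190 without set 2, 0.0714 without set 3, 0.173 in a fit of all 12 libraries and 0.0996 in the fit of 11 libraries), Cenpf (adjusted p = 0.0673 without set 2, 0.0811 without set 3, 0.291 in a fit of all 12 libraries, 0.0540 with a pseudocount of 0.1 and 0.0841 in the fit of 11 libraries) and Kif11 (adjusted p = 0.0919 without set 2, 0.0921 without set 3, 0.169 in a fit of all 12 libraries and 0.0565 with a pseudocount of 0.1) lost significance there.

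**Figure D4:**
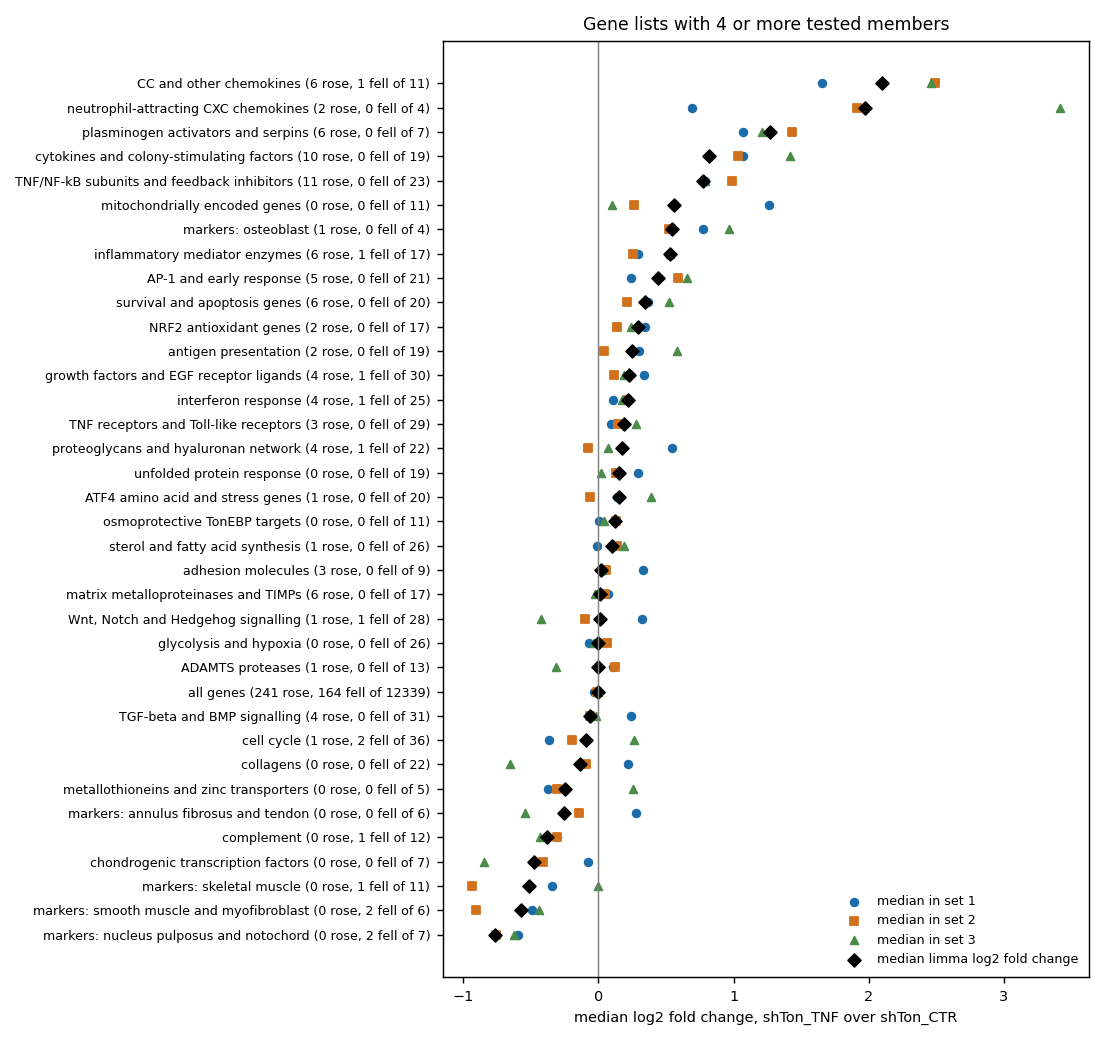
Median log2 fold change (shTon_TNF over shTon_CTR) of each gene list with 4 or more tested members, from the limma fit (diamonds) and within each set (other symbols), with the numbers that rose and fell of those tested beside each name. Chemokine, plasminogen, cytokine and NF-kB lists lie at 0.77 or higher in the fit, and NP, smooth muscle and skeletal muscle marker lists at -0.51 or lower.

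The same treatment of control-vector cells was used to see where the response of shTon cells differs. The pairs share no library, although each holds sets 1 to 3. In PLKO cells 1221 of 12207 genes passed (10.0%). Among 12094 genes tested in both, 338 passed in both, all in the same direction (197 rose and 141 fell). They made up 83.5% of the 405 called in shTon cells and 27.8% of the 1216 called in PLKO cells. All 405 had the same sign in PLKO cells, as did 1201 of the 1216 in shTon cells. Across these genes Pearson's r of the log2 fold changes was 0.766, a description over genes that share libraries. The median absolute log2 fold change of the genes called in PLKO cells was 0.57 in shTon cells and 0.78 in PLKO cells, where those genes were chosen. The median SE was 0.169 in the shTon fit and 0.144 in the PLKO fit.

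The difference between the responses (shTon minus PLKO) passed for 0 of 12310 genes (0%) in limma over all 12 libraries with the set as a block. Its smallest adjusted p was 0.999, and 219 genes (1.78%) had an unadjusted p under 0.05. edgeR and DESeq2 also called 0, with 247 and 272 genes at that unadjusted level. The median SE of the difference was 0.27, and the intervals below show what this precision allows. The set block of this fit gives both cell lines the same set effect, so set differences particular to a cell line add to this SE. A fit with separate set effects for each cell line was not run. No gene passed without set 1 either, where 235 had an unadjusted p under 0.05. A p that misses the threshold does not show that the responses were equal.

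Intervals of single genes were wide in this fit, also where the cell lines had similar ratios set by set. For Mmp9 the log2 ratios of sets 1, 2 and 3 were 3.66, 3.57 and 4.56 in shTon cells. In PLKO cells they were 3.47, 3.39 and 4.49. For Tnfaip3 the difference was -0.06 (95% interval -0.54 to 0.42, unadjusted p = 0.779, -0.09 without set 1), for Nfkbia 0.17 (95% interval -0.21 to 0.56, unadjusted p = 0.346, 0.24 without set 1) and for Mmp9 0.15 (95% interval -1.39 to 1.69, unadjusted p = 0.836, 0.13 without set 1). For Il6 it was -0.07 (95% interval -1.26 to 1.13, unadjusted p = 0.905, -0.50 without set 1), for Ccl20 0.22 (95% interval -0.69 to 1.13, unadjusted p = 0.605, 0.14 without set 1) and for Nos2 1.54 (95% interval 0.28 to 2.80, unadjusted p = 0.0214, 1.48 without set 1). Gas1, a growth arrest gene, had 80.0, 39.3 and 21.2 normalised reads in shTon_TNF and 247, 223 and 35.1 in shTon_CTR. Lower in each set, it narrowly missed the threshold in the main fit (-1.60, adjusted p = 0.0527, -1.59 without set 1). Gas1 passed in edgeR (adjusted p = 0.0235), in DESeq2 (9.32e-05) and in limma without set 1 (0.00229) or set 3 (0.0182). It did not pass in limma without set 2 (0.0927) or in the fit of all 12 libraries (0.177). In control-vector cells it had 39.5, 29.9 and 30.4 in PLKO_TNF and 238, 339 and 398 in PLKO_CTR, and the difference was 1.63 (95% interval -0.11 to 3.37, unadjusted p = 0.0636, 1.97 without set 1). The 10 genes with the smallest p for the difference are given as values, since none passed. Olr1, the receptor for oxidised LDL, had 557, 2470.3 and 362 normalised reads in shTon_TNF and 65.9, 717 and 27.3 in shTon_CTR. In PLKO cells it had 198, 1346 and 169.9 in PLKO_TNF and 126, 689 and 61.4 in PLKO_CTR, and the difference was 1.82 (95% interval 0.88 to 2.76, unadjusted p = 0.00142, 1.52 without set 1). Hmox1, heme oxygenase 1, had 2649, 1188 and 843 normalised reads in shTon_TNF and 1510.0, 1103 and 863 in shTon_CTR. In PLKO cells it had 5167, 3904 and 6541 in PLKO_TNF and 2653, 1354 and 1144 in PLKO_CTR, and the difference was -1.37 (95% interval -2.28 to -0.47, unadjusted p = 0.00677, -1.98 without set 1). Tfrc, the transferrin receptor, had a difference of -0.81 (95% interval -1.33 to -0.30, unadjusted p = 0.00532, -1.12 without set 1), and Grem1, a BMP antagonist, one of 0.68 (95% interval 0.20 to 1.15, unadjusted p = 0.00934, 0.57 without set 1). The others were Flrt2 (1.12, 1.44 without set 1), Tm4sf1 (1.11, 1.25 without set 1), Synpo (0.89, 0.71 without set 1), Pdik1l (-0.70, -0.60 without set 1), Las1l (-0.62, -0.51 without set 1) and Rrp12 (-0.64, -0.80 without set 1).

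The NRF2 antioxidant genes, which detoxify oxidants and include Hmox1, are given beside the same list in PLKO cells. Of 17 tested 2 rose and 0 fell in shTon cells (median 0.29), and 9 rose and 0 fell of 17 in PLKO cells (median 0.60), where 3.28% of all genes passed in shTon cells and 10.0% in PLKO cells, so counts were lower in shTon cells over all genes too. The difference itself passed for none of them, and 4 had an unadjusted p under 0.05. Slc7a11, the cystine importer that also stands in the list of ATF4 stress genes, had 10054, 1730.0 and 145 normalised reads in shTon_TNF and 4154, 914 and 74.2 in shTon_CTR (log2 fold change 1.05, SE 0.13, adjusted p = 0.00990, and 0.94 without set 1). In PLKO cells the values of Slc7a11 were 20344, 6764 and 498 in PLKO_TNF and 10199, 945 and 80.1 in PLKO_CTR, and the difference was -1.10 (95% interval -1.97 to -0.23, unadjusted p = 0.0176, -1.79 without set 1). Txnrd1, thioredoxin reductase, had 14479, 8208 and 11260.1 normalised reads in shTon_TNF and 7054, 3694 and 5092 in shTon_CTR (log2 fold change 1.11, SE 0.13, adjusted p = 0.00815, and 1.15 without set 1). In PLKO cells the values of Txnrd1 were 21854, 11854 and 17756 in PLKO_TNF and 9794, 3377 and 3728 in PLKO_CTR, and the difference was -0.63 (95% interval -1.24 to -0.02, unadjusted p = 0.0442, -0.88 without set 1). For Slc7a11 the groups overlapped between shTon_TNF and shTon_CTR, and for Txnrd1 the groups did not overlap. Slc7a11 was the member that rose among 20 ATF4 genes tested (median 0.15). Without sets 1, 2 and 3 in turn 3, 2 and 2 NRF2 and 3, 1 and 1 ATF4 genes passed in shTon cells, with 1 fall among the ATF4 genes without set 1. Slc7a11 (adjusted p = 0.0790 in a fit of all 12 libraries and 0.120 in the fit of 11 libraries) lost significance there.

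**Figure D5:**
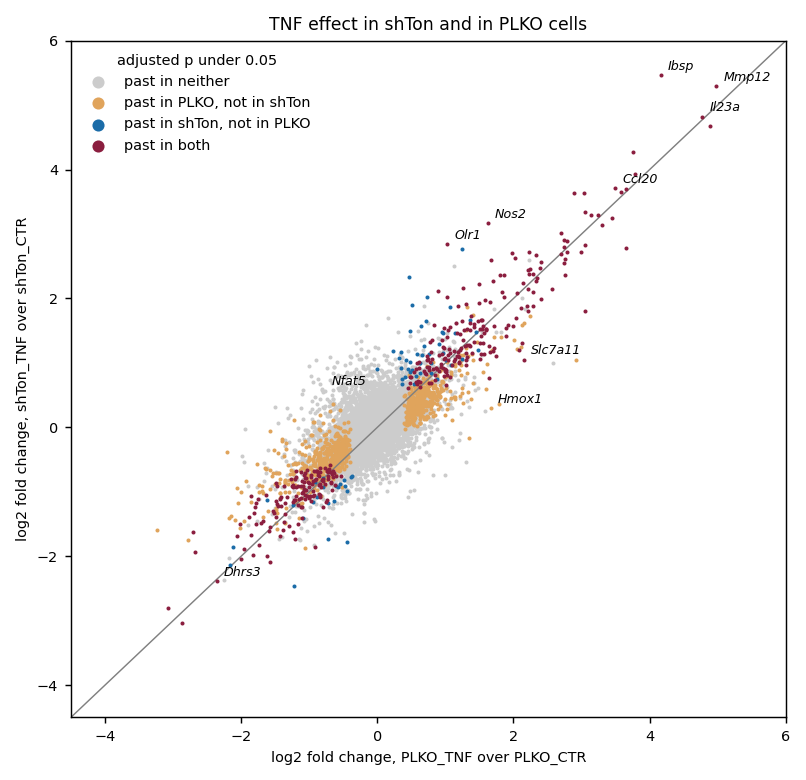
Log2 fold change with TNF-a in shTon cells (vertical axis) against that in PLKO cells (horizontal axis) for the 12094 genes tested in both, coloured by where the adjusted p was under 0.05; the line marks equality. The 338 genes past the threshold in both lie at the upper right and lower left, with Ibsp, Mmp12 and Il23a at the top, and Hmox1 lies below the line at 0.29 in shTon cells.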

How the data were processed

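RNA-seq was done on 12 libraries of rat NP cells, 3 in each of 4 groups. Per the submitters' processing notes, the build was rn5 and the tools named were Novoalign 2.08.01 and DESeq2, without their roles. The authors deposited 3 tables, each with a normalised signal per gene for 6 libraries, per the file headers. The shTon_TNF and shTon_CTR libraries stand in different tables, which were normalised separately. Each deposited value was a whole multiple of its library's smallest value above 0 (100% of values, within 0.01 read), so read counts were recovered, and 12899 genes common to the 3 tables were joined and scaled together with size factors from DESeq2 1.42.0 over the 12 libraries. The authors' deposited log2 fold changes and p-values were not used. The sources used here do not give the read counter, the strandedness or how multi-mapped reads were handled, so overlapping genes and near-identical relatives cannot be told apart.

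limma 3.58.1 (R 4.3.3) was run on log2(normalised reads + 1) with the set as a block and a mean-variance trend, on the 6 libraries of each cell line, and over all 12 for the difference. Genes with a mean of at least 10 were kept, and p-values were adjusted by Benjamini-Hochberg at 0.05. Fits were tested on simulated data. edgeR 4.0.16 on the recovered read counts called 460 genes in shTon cells. Other alternatives were DESeq2, TMM scaling, no block, no trend, another pseudocount or filter, all 12 libraries, and each set left out. The unit differed from raw counts, so limma was the main test and edgeR an alternative. Set numbers pair the libraries: deviations from group means correlated at 0.817, 0.783 and 0.870 between shTon_TNF and shTon_CTR libraries of the same set and at -0.734 to 0.179 otherwise. No 2 libraries of a group were copies: their counts differed with chi-square over degrees of freedom of 73.3 to 167.

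The comparison and the gene lists were chosen with earlier results of these data known. Named genes are Nfat5, the 12 largest rises and 10 largest falls past the threshold (same direction in 3 sets, mean of at least 100), the 4 members of each list with the smallest p past the threshold (or the one with the smallest p where none passed), a fixed list of inflammatory and matrix genes, and the 10 smallest p-values of the difference with a mean of at least 100. Some genes these rules pick are not reported here. Promoters and their coordinates come from RefSeq (GRCr8), matched by symbol for 8832 of 12280 tested symbols. No genome of rn5 was used.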

Additional observations from a re-analysis of the deposited data

How the results depend on the processing

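The number of genes past the threshold depended on the design more than on scaling or filters. For TNF-a in shTon cells 405 genes passed, against 6 without the replicate block, 143 without the mean-variance trend, 671 with DESeq2, and 317 to 1105 when a set was left out. The other settings gave 295 to 469. In PLKO cells 1221 passed, against 0 in limma without the replicate block (785 at an unadjusted p under 0.05), 122 without the trend, 704 in the fit of all 12 libraries, and 746 to 1563 when a set was left out. The difference between the cell lines was 0 genes under every setting run, with or without the set block. Where used, that block was shared by both cell lines. Of the 89 genes picked by the rules for naming and past the threshold, 89 kept their direction and 6 kept their call under every setting. Values that changed sign were those of Nfat5, at -0.091 without set 1 (adjusted p = 0.843) and -0.32 in the fit of all 12 libraries without shTon_TNF replicate 1 (adjusted p = 0.673), with 1.01 as the highest value with a set left out, and of Tek, at 0.0363 in that same fit (adjusted p = 0.971). The fit without shTon_TNF replicate 1 was chosen after seeing the data. Equally few samples remain whichever set is left out, and the causes of these shifts were not tested. With 3 libraries a group, the median SE was 0.169 on the log2 scale in shTon cells.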
